A study of Mus musculus with 8 samples.

Results

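The genes described here are 34 mouse genes of glycolysis and of the response to low oxygen. They comprise 15 enzymes of the glycolytic steps, 2 lactate dehydrogenase genes, 4 transporters of glucose and lactate, and 3 regulators of glycolytic flux. The others are Hif1a with 2 of the prolyl hydroxylases that act on its product, and 7 further targets of the hypoxia-inducible factor (HIF). The genes were listed by name, with no threshold on a measured value but with earlier results of these data known, and each was found by its Ensembl identifier among the 55487 gene rows of the files. All 34 had enough reads to be tested, among 20631 genes tested in all.

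Conventional dendritic cells (cDC), which present antigen to prime T cells, were sorted from spleens of untreated C57BL/6 mice at about 100000 cells per sample for RNA sequencing. The 4 groups were cDC1 of mice labelled Zeb2 -165(d1+2+3), an altered enhancer of Zeb2, WT cDC1, cDC2 of mice labelled Irf8 +32-/-, which lack an enhancer of Irf8 on both copies, and WT cDC2. Each group held 2 libraries, numbered replicate 2 and replicate 3, and each mutant was profiled in 1 of the cell types. The labels do not say what separates the replicates, nor do they give the mice behind each library, their age and sex, or the sort gates. The p-values therefore cover the spread among these libraries only, which may be technical. The groups are called Zeb2 mutant cDC1, WT cDC1, Irf8 mutant cDC2 and WT cDC2 from here on.

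Glycolysis splits glucose into pyruvate in the cytosol and yields ATP without oxygen. Hexokinase traps glucose in the cell, phosphofructokinase sets the pace of the pathway, and lactate dehydrogenase converts pyruvate to lactate, which leaves through monocarboxylate transporters. HIF-1 is a transcription factor made of HIF-1 alpha and ARNT, and its alpha subunit is marked for destruction by oxygen-dependent prolyl hydroxylases. When oxygen is low, or after inflammatory signals in myeloid cells, it accumulates and activates genes of glucose uptake, glycolysis and angiogenesis. Activated dendritic cells are known to raise glycolysis, while the cells measured here were not treated.

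The libraries held 49380686 to 58611821 counts. Summed over 10 cDC1 markers, levels in CPM, counts scaled by library size, were 11120 to 11420 in Zeb2 mutant cDC1, 8501 to 10920 in WT cDC1, 1754 to 1944 in Irf8 mutant cDC2 and 1799 to 1999 in WT cDC2. Summed over 10 cDC2 markers, they were 752 in both Zeb2 mutant cDC1 libraries, 661 to 701 in WT cDC1, 2815 to 2905 in Irf8 mutant cDC2 and 3116 to 3233 in WT cDC2. Most of the cDC2 marker sum in cDC1 came from Tbc1d8, which was lower in cDC2. It had 706 and 714.5 CPM in Zeb2 mutant cDC1 and 616 and 663 in WT cDC1. In cDC2 it had 595 and 569 CPM in the Irf8 mutant and 610 and 566 in WT. Most of the cDC1 marker sum in cDC2 came from Wdfy4, at 1706 and 1542 CPM in the Irf8 mutant and 1772 and 1594 in WT. By both sums, each library carried the markers of its labelled cell type. CPM here are scaled with TMM factors, and values of a group are given as replicate 2 and then replicate 3. A gene was called where the Benjamini-Hochberg adjusted p of edgeR's quasi-likelihood test, over all tested genes, was under 0.05. In bulk RNA, fewer cells of a type and less RNA per cell cannot be told apart.

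In several gene families, WT cDC1 and WT cDC2 held most RNA of different members. Of the 34 genes, 10 were higher and 12 were lower in WT cDC1 than in WT cDC2 (edgeR, 64.7% called), where 30.1% of all tested genes were called, 14.2% higher and 15.9% lower. Among genes at a mean of 10 CPM or more, 20 of the 29 listed genes were called, or 69%, against 49.4% of all genes at that level. Of the calls, 16 were at least 2-fold, a share that was not computed over all tested genes. The median log2 fold change was 0.01 over the 34 genes and 0.03 over all genes. The summed level of the 34 genes was 4974 and 4896 CPM in WT cDC1 and 5028 and 4613 CPM in WT cDC2, so these sums overlapped. For 11 genes all 4 cDC1 libraries lay above all 4 cDC2 libraries, and for 13 genes all 4 lay below (19.6% and 20.4% of all tested genes).

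**Figure D1:**
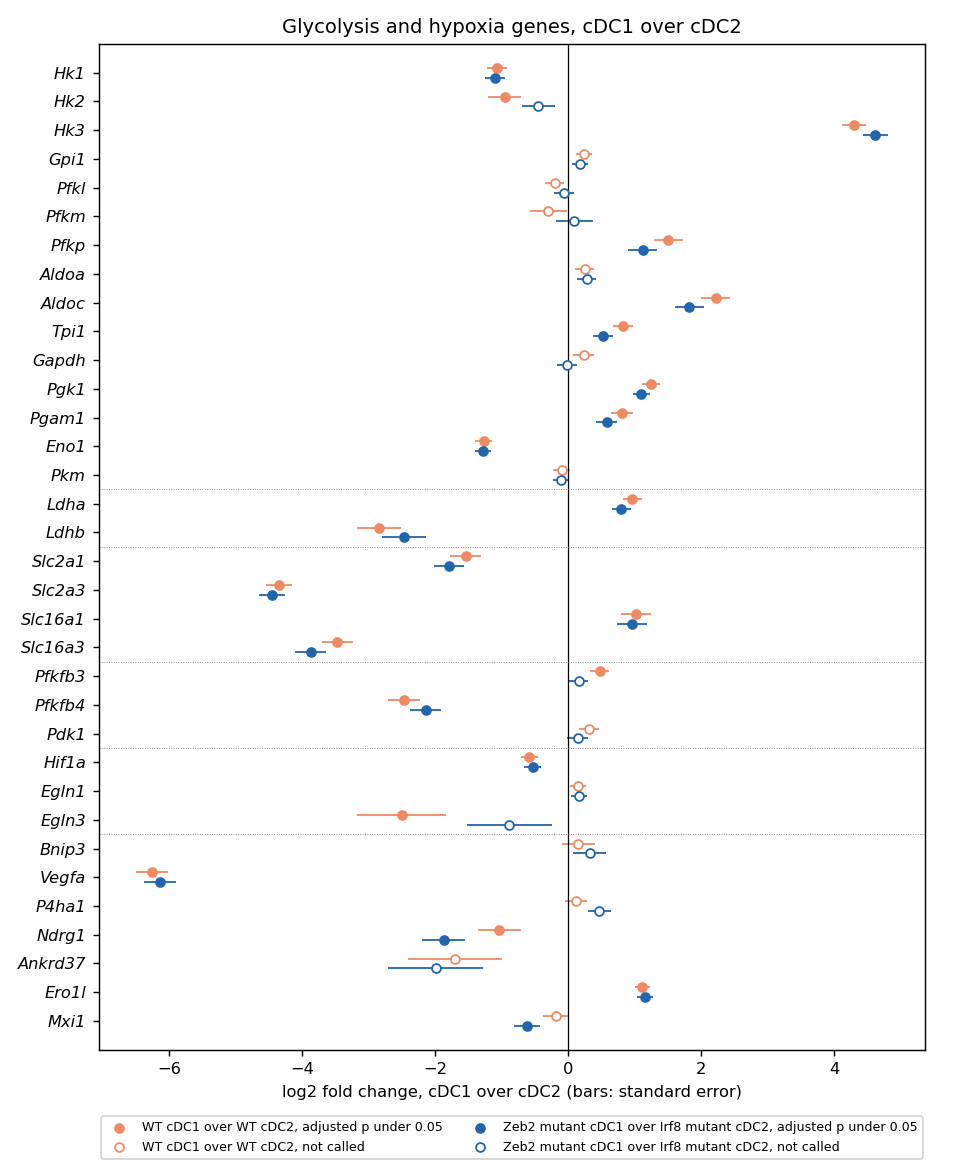
Log2 fold changes of the 34 genes, cDC1 over cDC2, with standard errors, in the mutants (Zeb2 mutant cDC1 over Irf8 mutant cDC2, blue) and in WT cells (orange), with dotted lines between roles. Filled points passed edgeR's test, and the largest differences in WT cells were 4.31 for Hk3 and -6.26 for Vegfa.

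Among the enzymes, the hexokinase gene Hk3 differed most. Hk3, a hexokinase known from myeloid cells, had 157 and 157.5 CPM in Zeb2 mutant cDC1, 161 and 197 in WT cDC1, 7.26 and 5.49 in Irf8 mutant cDC2, and 8.69 and 9.38 in WT cDC2. Every cDC1 library lay far above every cDC2 library. The WT difference was 19.8-fold (log2 4.31, SE 0.18, edgeR adjusted p = 9.81e-08). Hk1, the broadly expressed hexokinase of most tissues, had 57.1 and 66.8 CPM in Zeb2 mutant cDC1 and 56.3 and 70.2 in WT cDC1. It had 142 and 123 CPM in Irf8 mutant cDC2 and 131 and 136 in WT cDC2, above all cDC1 libraries. The WT fold change was -1.08 on the log2 scale (SE 0.15, edgeR adjusted p = 3.94e-04). Hk2, the hypoxia-inducible hexokinase, averaged 44.4 ± 20.4 CPM in WT cDC1 and 86.2 ± 9.74 CPM in WT cDC2 (SD, n = 2 each) and was lower in WT cDC1 (log2 -0.96, SE 0.25, edgeR adjusted p = 0.0153). Its 2 WT cDC1 libraries were far apart, at 30.0 and 58.9 CPM, and the call was lost without either WT cDC2 library and when only the WT groups were fitted (edgeR adjusted p up to 0.101).

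Per exon length, as the authors' FPKM, Hk3 made up 74.0 to 79.0% of the summed hexokinase level in the 4 cDC1 libraries and 5.73 to 8.03% in the 4 cDC2 libraries. Hk1 was 11.5 to 13.5% and 46.0 to 58.3%, and Hk2 was 9.08 to 13.8% and 34.8 to 46.9%. The cDC1 libraries thus held mostly Hk3 RNA, and the cDC2 libraries Hk1 and Hk2 RNA. FPKM divide by the deposited exon length of each gene, which need not be that of the transcript made, so such shares depend on it. The 250 bases upstream of the RefSeq start of Hk3, called higher in WT cDC1, and of Hk2, called lower, are shown to set the 2 promoters side by side. The letters are 5′ to 3′ on the gene's strand in GRCm38.p6, from chr13:55021386-55021635 for Hk3 and chr6:82774455-82774704 for Hk2, both on the minus strand. Capitals mark ACGTG or GCGTG, the core that HIF binds, on either strand (CACGT and CACGC are the reverse spellings).
Hk3: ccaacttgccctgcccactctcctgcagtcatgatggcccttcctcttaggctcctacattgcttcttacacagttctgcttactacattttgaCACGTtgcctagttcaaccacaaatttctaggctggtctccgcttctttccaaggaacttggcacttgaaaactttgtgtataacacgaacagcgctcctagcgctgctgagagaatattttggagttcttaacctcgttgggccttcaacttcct
Hk2: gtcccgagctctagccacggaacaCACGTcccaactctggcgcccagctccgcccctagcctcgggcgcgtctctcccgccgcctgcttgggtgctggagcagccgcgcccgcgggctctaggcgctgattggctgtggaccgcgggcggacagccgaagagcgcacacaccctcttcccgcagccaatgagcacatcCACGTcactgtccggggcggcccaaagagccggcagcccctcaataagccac
Hk3 had 1 match, which began 156 bases before the start, and Hk2 had 2, which began 226 and 52 bases before it. A match is a description of the letters and not a bound site.

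Phosphofructokinase, the main control point of the pathway, differed through its platelet-type gene. Pfkp had 443 and 486 CPM in Zeb2 mutant cDC1, 428 and 407 in WT cDC1, 274 and 154 in Irf8 mutant cDC2, and 145 and 148 in WT cDC2. All cDC1 libraries were higher, and replicate 2 of Irf8 mutant cDC2 stood above the other cDC2 libraries. The WT difference was 2.85-fold (log2 1.51, SE 0.22, edgeR adjusted p = 5.04e-04). Pfkl, the liver-type gene, averaged 135 ± 20.4 CPM in WT cDC1 and 156 ± 18.0 CPM in WT cDC2 (SD, n = 2 each) and was not called (log2 -0.20, 95% interval -0.53 to 0.12). Pfkm, the muscle-type gene, was at 4.04 to 6.86 CPM in all 8 libraries and not called (interval -0.92 to 0.32). Pfkp made up 56.0 to 63.5% of the phosphofructokinase FPKM in cDC1 libraries and 28.9 to 46.9% in cDC2 libraries. These shares rest on deposited exon lengths of 13401 bases for Pfkp and 6675 for Pfkl. By CPM, Pfkp (274 and 154) was above Pfkl (144 and 126.5) in Irf8 mutant cDC2.

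Of the enzymes that carry 6-carbon and 3-carbon sugars through the middle of the pathway, 4 were higher in WT cDC1 and 3 were not called. Pgk1, which makes the first ATP, had 136 and 129 CPM in Zeb2 mutant cDC1, 159 and 136 in WT cDC1, 65.7 and 57.7 in Irf8 mutant cDC2, and 62.5 and 62.2 in WT cDC2. The groups of the 2 cell types did not overlap, and the WT difference was 2.37-fold (log2 1.25, SE 0.13, edgeR adjusted p = 5.65e-05). Aldoc, an aldolase best known from brain, had 15.9 and 20.1 CPM in Zeb2 mutant cDC1, 22.4 and 24.8 in WT cDC1, 5.74 and 4.45 in Irf8 mutant cDC2, and 5.29 and 4.83 in WT cDC2. It was 4.66-fold higher in WT cDC1 (log2 2.22, SE 0.22, edgeR adjusted p = 3.20e-05). Aldoc was the minor aldolase everywhere, at 5.96 to 8.87% of the aldolase FPKM in cDC1 libraries and 2.12 to 2.35% in cDC2 libraries. Tpi1, the isomerase between both triose phosphates, was 1.77-fold higher (141 ± 9.09 CPM in WT cDC1 and 79.8 ± 5.08 in WT cDC2, edgeR adjusted p = 2.12e-03). Pgam1, a phosphoglycerate mutase, was 1.75-fold higher (92.2 ± 5.55 and 52.6 ± 6.11 CPM, edgeR adjusted p = 3.12e-03). Named pseudogenes of Pgam1 took 4.75 to 6.35% of the counts summed over it and them, so a small share of its reads may be split between copies. Aldoa (log2 0.25), Gpi1 (log2 0.24) and Gapdh (log2 0.24) were not called, with the widest of their 95% intervals -0.11 to 0.58 for Gapdh.

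Enolase went the other way. Eno1, which makes phosphoenolpyruvate, had 232 and 240 CPM in Zeb2 mutant cDC1, 275 and 262 in WT cDC1, 610 and 536 in Irf8 mutant cDC2, and 687 and 607 in WT cDC2. The lowest cDC2 library was far above the highest cDC1 library. Eno1 was 2.41-fold lower in WT cDC1 (log2 -1.27, SE 0.13, edgeR adjusted p = 3.63e-05). Pkm, the pyruvate kinase that makes the last ATP, had the highest mean of the 15 enzymes per deposited exon length over the 8 libraries. It was at 109 to 127 FPKM, although in WT cDC1 Gapdh averaged 122.5 FPKM and Pkm 118 FPKM. It had 559 and 543 CPM in Zeb2 mutant cDC1, 553 and 604 in WT cDC1, 627 and 556 in Irf8 mutant cDC2, and 645 and 593 in WT cDC2. These values overlapped, and the WT difference was not called (log2 -0.10, 95% interval -0.37 to 0.17). Along these 3 successive steps, Pgam1 was higher in WT cDC1, Eno1 was lower and Pkm was not called.

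Lactate dehydrogenase was nearly all the A form. Ldha, whose enzyme favours lactate production, had 892 and 1017 CPM in Zeb2 mutant cDC1, 1019 and 948 in WT cDC1, 610 and 488 in Irf8 mutant cDC2, and 528 and 479.6 in WT cDC2. It was the most abundant of the 34 genes per length, at 142 to 317 FPKM, and every cDC1 library was above every cDC2 library. The WT difference was 1.95-fold (log2 0.97, SE 0.14, edgeR adjusted p = 5.53e-04). Ldhb, whose enzyme favours lactate use, had 0.998 and 0.627 CPM in Zeb2 mutant cDC1, 1.04 and 0.924 in WT cDC1, 4.55 and 4.49 in Irf8 mutant cDC2, and 7.71 and 6.45 in WT cDC2. It was 7.22-fold lower in WT cDC1 (log2 -2.85, SE 0.33, edgeR adjusted p = 9.70e-05), a difference that rests on 60 and 54 counts in WT cDC1, against 424 and 363 counts in WT cDC2. Ldhb made up 0.130 to 0.235% of the lactate dehydrogenase FPKM in cDC1 libraries and 1.55 to 2.99% in cDC2 libraries, small in both.

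All 4 transporter genes were called between the WT cell types, 3 of them lower in WT cDC1. Slc2a3, the high-affinity glucose transporter GLUT3, had 9.37 and 9.72 CPM in Zeb2 mutant cDC1, 17.3 and 11.8 in WT cDC1, 198 and 220.2 in Irf8 mutant cDC2, and 315 and 277 in WT cDC2. The cell types did not come near each other, and the gene was 20.3-fold lower in WT cDC1 (log2 -4.34, SE 0.20, edgeR adjusted p = 1.49e-07). Slc2a1, the widespread glucose transporter GLUT1, had 22.2 and 14.0 CPM in Zeb2 mutant cDC1, 17.6 and 22.2 in WT cDC1, 71.2 and 54.3 in Irf8 mutant cDC2, and 56.8 and 59.1 in WT cDC2. It was 2.92-fold lower in WT cDC1 (log2 -1.54, SE 0.23, edgeR adjusted p = 5.31e-04). Of the summed FPKM of both glucose transporters, Slc2a1 made up 67.7 to 83.0% in cDC1 libraries and 27.1 to 42.6% in cDC2 libraries, so the leading gene was Slc2a1 in cDC1 and Slc2a3 in cDC2.

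Lactate transporters split in the same way. Slc16a3, the exporter MCT4 of glycolytic cells, had 6.71 and 7.23 CPM in Zeb2 mutant cDC1, 5.91 and 6.55 in WT cDC1, 124 and 80.5 in Irf8 mutant cDC2, and 77.9 and 60.5 in WT cDC2. Every cDC2 library held far more, and the WT difference was 11.1-fold lower in cDC1 (log2 -3.47, SE 0.23, edgeR adjusted p = 1.84e-06). Slc16a1, the transporter MCT1 that carries lactate in either direction, had 42.1 and 35.3 CPM in Zeb2 mutant cDC1, 41.8 and 34.6 in WT cDC1, 22.6 and 17.1 in Irf8 mutant cDC2, and 22.7 and 15.0 in WT cDC2. It was 2.03-fold higher in WT cDC1 (log2 1.02, SE 0.23, edgeR adjusted p = 6.21e-03), a call that was lost without replicate 3 of WT cDC2 (adjusted p = 0.0606). Slc16a1 made up 85.4 to 89.5% of their summed FPKM in cDC1 libraries and 17.9 to 25.9% in cDC2 libraries. The exons of Slc16a3 share 5.75% of their bases with Csnk1d on the other strand. The kit is taken here not to mark strand, in which case reads from there cannot be told apart. The upstream 250 bases of both genes are shown because the pair changed places between the cell types, from chr3:104638414-104638663 for Slc16a1 and chr11:120948817-120949066 for Slc16a3, both on the plus strand of GRCm38.p6, with the same letters in capitals.
Slc16a1: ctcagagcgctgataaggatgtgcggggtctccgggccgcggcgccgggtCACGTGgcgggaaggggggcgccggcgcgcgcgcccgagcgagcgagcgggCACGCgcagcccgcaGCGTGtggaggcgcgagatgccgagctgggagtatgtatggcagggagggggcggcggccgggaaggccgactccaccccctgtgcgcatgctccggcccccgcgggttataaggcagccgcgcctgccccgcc
Slc16a3: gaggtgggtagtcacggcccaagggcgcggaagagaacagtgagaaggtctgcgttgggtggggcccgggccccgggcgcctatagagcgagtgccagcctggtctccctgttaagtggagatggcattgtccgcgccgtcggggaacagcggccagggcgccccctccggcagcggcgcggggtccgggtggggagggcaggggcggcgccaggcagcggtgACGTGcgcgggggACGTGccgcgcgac
Slc16a1 had 4 matches, which began 200, 199, 149 and 134 bases before the RefSeq start, and the first pair forms CACGTG, the E-box that MYC and related factors bind. Slc16a3 had 2 matches, which began 27 and 14 bases before its RefSeq start. This window of Slc16a3 lies within the span of the gene as counted, whose exons begin at chr11:120948480.

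**Figure D2:**
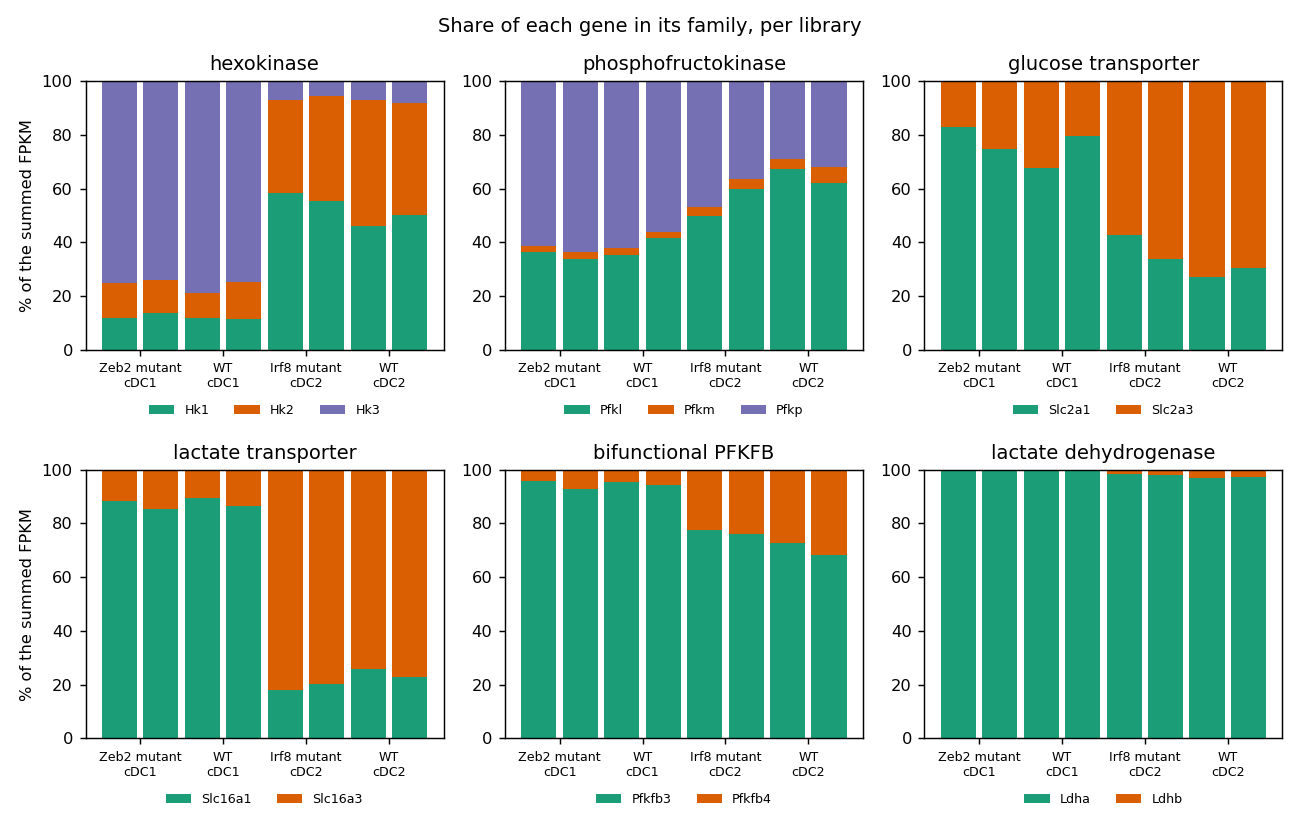
Share of each gene in the summed FPKM of its family, in %, for the 8 libraries in pairs (replicate 2, then replicate 3). In hexokinase and lactate transporter panels the leading gene changes between cDC1 and cDC2 libraries, with Hk3 at 74.0 to 79.0% and 5.73 to 8.03%.

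Regulators of flux moved apart as well. Pfkfb3, a bifunctional enzyme that makes the activator fructose 2,6-bisphosphate, had 265 and 259 CPM in Zeb2 mutant cDC1, 251 and 253 in WT cDC1, 258 and 211 in Irf8 mutant cDC2, and 202 and 161 in WT cDC2. Replicate 2 of Irf8 mutant cDC2 reached the cDC1 range, while replicate 3 of that group and both WT cDC2 libraries stayed below it. The WT difference was 1.39-fold (log2 0.47, SE 0.15, edgeR adjusted p = 0.0343), and 6 of the 15 alternatives lost it, with an adjusted p of up to 0.256. Pfkfb4, a second enzyme of this kind, had 7.62 and 13.0 CPM in Zeb2 mutant cDC1, 7.98 and 9.44 in WT cDC1, 48.0 and 43.1 in Irf8 mutant cDC2, and 48.6 and 47.9 in WT cDC2. It was 5.54-fold lower in WT cDC1 (log2 -2.47, SE 0.24, edgeR adjusted p = 2.56e-05). Pfkfb4 made up 4.27 to 7.23% of the FPKM of this pair in cDC1 libraries and 22.4 to 31.6% in cDC2 libraries. Pdk1, a kinase that inhibits pyruvate dehydrogenase in the mitochondrion, averaged 46.9 ± 9.22 CPM in WT cDC1 and 37.7 ± 2.98 CPM in WT cDC2 (SD, n = 2 each) and was not called (log2 0.31, 95% interval -0.04 to 0.66).

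The gene of the oxygen-regulated factor itself was lower in WT cDC1. Hif1a had 149.6 and 138 CPM in Zeb2 mutant cDC1, 128 and 137 in WT cDC1, 200.4 and 216 in Irf8 mutant cDC2, and 185 and 213 in WT cDC2. The cell types did not overlap, and the difference was small (log2 -0.59, SE 0.13, edgeR adjusted p = 5.67e-03). Without replicate 3 of WT cDC2 the adjusted p was 0.0882. Egln1, the main oxygen sensor among the prolyl hydroxylases, was at 51.8 to 63.3 CPM in all 8 libraries and not called (log2 0.15, 95% interval -0.13 to 0.42). Egln3, a hydroxylase that HIF itself induces, had only 6 and 20 counts in WT cDC1, against 77 and 65 counts in WT cDC2, and was lower in WT cDC1 (log2 -2.51, SE 0.67, edgeR adjusted p = 0.0169). In Zeb2 mutant cDC1 it had 21 and 27 counts, against 56 and 25 in Irf8 mutant cDC2, and was not called there. Its WT call was lost without either WT cDC2 library and without replicate 2 of WT cDC1, and RNA levels say nothing of HIF-1 alpha protein, which oxygen controls after translation.

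HIF targets held the largest difference. Vegfa, the angiogenic growth factor, had 4.08 and 2.49 CPM in Zeb2 mutant cDC1, 3.44 and 3.15 in WT cDC1, 252 and 212 in Irf8 mutant cDC2, and 264 and 241 in WT cDC2. Per length it averaged 0.801 FPKM in Zeb2 mutant cDC1, 0.782 in WT cDC1, 52.6 in Irf8 mutant cDC2 and 56.7 in WT cDC2. The WT difference was 76.6-fold lower in cDC1 (log2 -6.26, SE 0.24, edgeR adjusted p = 5.69e-08). Ero1l (also named Ero1a), an oxidase that forms disulfide bonds in the endoplasmic reticulum, had 99.5 and 97.9 CPM in Zeb2 mutant cDC1, 90.9 and 92.1 in WT cDC1, 43.5 and 45.1 in Irf8 mutant cDC2, and 42.4 and 41.9 in WT cDC2. It ran opposite to Vegfa, 2.17-fold higher in WT cDC1 (log2 1.12, SE 0.12, edgeR adjusted p = 5.32e-05). Ndrg1, a stress-induced gene, had 33.6 and 25.98 CPM in Zeb2 mutant cDC1, 28.0 and 25.8 in WT cDC1, 153.5 and 64.7 in Irf8 mutant cDC2, and 55.2 and 54.9 in WT cDC2. It was 2.05-fold lower in WT cDC1 (log2 -1.04, SE 0.32, edgeR adjusted p = 0.0344), but 5 alternatives lost the call, among them each that left out 1 WT library, with adjusted p up to 0.248. The other 4 were not called: Bnip3, a mitophagy receptor (log2 0.15), P4ha1, a collagen prolyl hydroxylase (log2 0.12), Mxi1, an antagonist of MYC (log2 -0.19), and Ankrd37 (log2 -1.70, 95% interval -3.27 to -0.13, edgeR adjusted p = 0.0979). Ankrd37 had 7 to 127 counts per library and lies across Lrp2bp and Ufsp2 on the other strand, so its reads cannot be assigned with certainty.

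**Figure D3:**
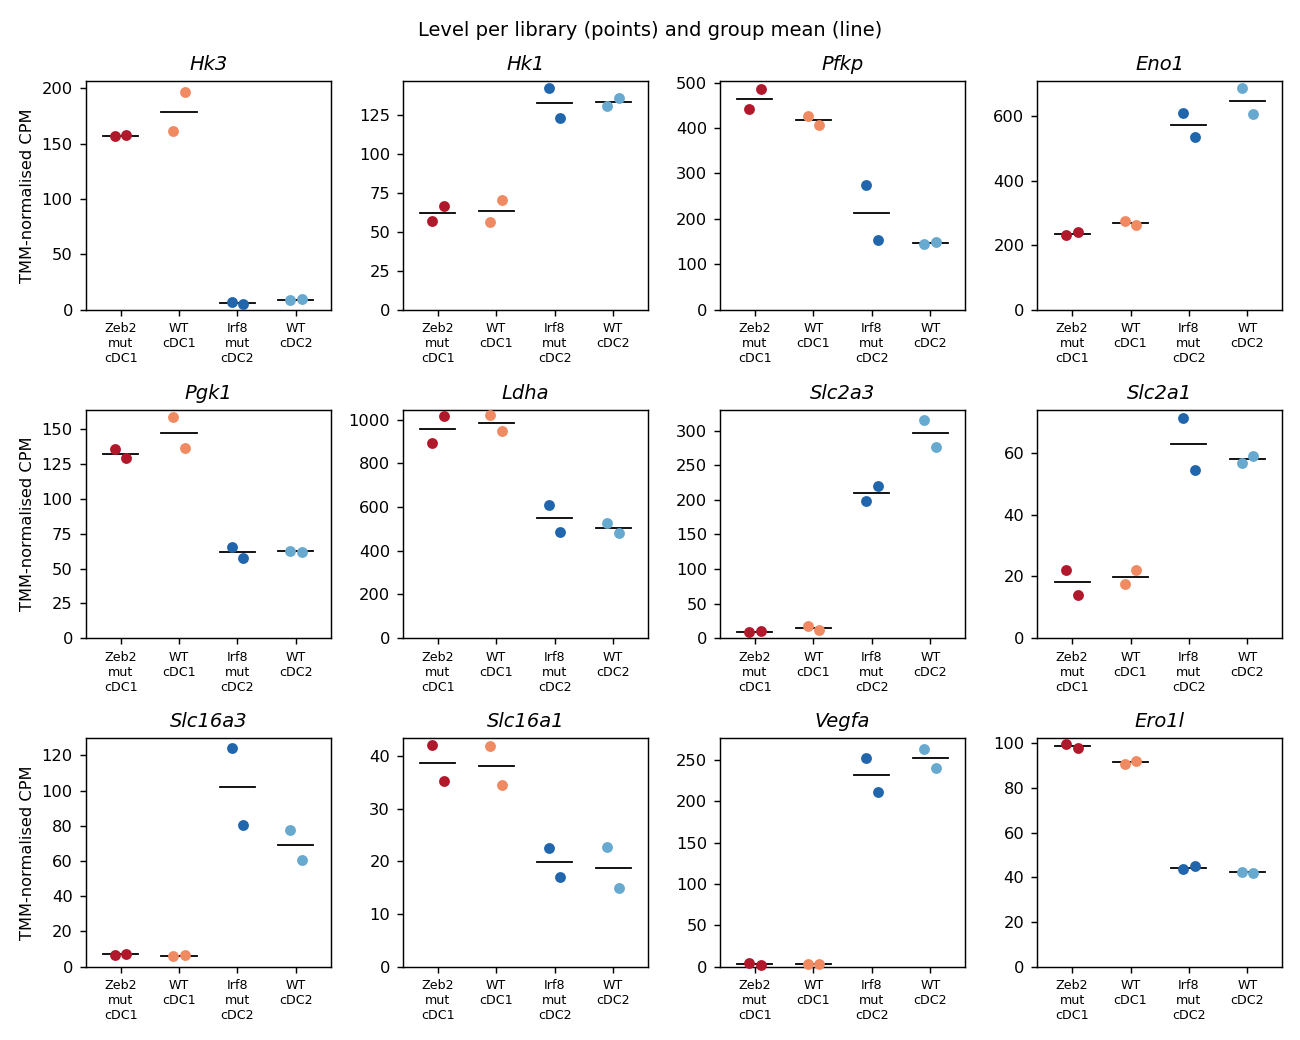
CPM of 12 of the genes in each of the 8 libraries (points), by group, with a line at each group mean. The cDC1 libraries lie above all cDC2 libraries for Hk3, Pfkp, Pgk1, Ldha, Slc16a1 and Ero1l and below them for Hk1, Eno1, Slc2a3, Slc2a1, Slc16a3 and Vegfa.

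The comparison of the 2 mutants repeats the subset difference in libraries that the WT comparison did not use, with genotype and cell type changing together and with 1 estimate of spread shared by all groups. Here 9 of the 34 genes were higher and 11 were lower in Zeb2 mutant cDC1 than in Irf8 mutant cDC2 (edgeR, 58.8% called), against 27.9% of all tested genes, 12.8% higher and 15% lower. At 10 CPM or more, 19 of the 29 listed genes were called, or 65.5%, against 44.9% of all genes at that level. In both comparisons and in the same direction 19 genes were called, which is 86.4% of the 22 calls in WT cells and 95% of the 20 calls in the mutants. Over all genes, 4406 calls were shared in this way, 70.85% of the WT calls and 76.63% of the mutant calls. The lead genes kept their size: Vegfa was 70.6-fold lower in Zeb2 mutant cDC1 (log2 -6.14, SE 0.24), Slc2a3 was 21.9-fold lower (log2 -4.45, SE 0.20), Slc16a3 was 14.7-fold lower (log2 -3.88, SE 0.23) and Hk3 was 24.6-fold higher (log2 4.62, SE 0.18). Hk2, Pfkfb3 and Egln3 were called in the WT comparison and not here, although Hk2 was called here when only these 2 groups were fitted or when either WT cDC1 library was left out of the fit (edgeR adjusted p = 0.0123 without replicate 2). Ndrg1 was 3.66-fold lower in Zeb2 mutant cDC1 (log2 -1.87, SE 0.33), but its log2 fold change was -1.12 without replicate 2 of Irf8 mutant cDC2. Mxi1 was called only in the mutants, at 43.5 and 48.7 CPM in Zeb2 mutant cDC1, against 85.6 and 56.1 CPM in Irf8 mutant cDC2 (log2 -0.62, SE 0.20, edgeR adjusted p = 0.0386) and lost its call under 7 of 15 alternatives, among them leaving out replicate 2 of Irf8 mutant cDC2 (log2 -0.28, adjusted p = 0.329). Tpi1, Pgam1, Slc16a1 and Hif1a also lost their calls here when 1 of the mutant libraries was left out, with adjusted p up to 0.148, 0.138, 0.0830 and 0.101, and Ndrg1 lost its call when only these 2 groups were fitted (adjusted p = 0.0689).

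The altered Zeb2 enhancer was compared with WT to ask whether it goes with other levels of these genes in cDC1. None of the 34 genes was called (edgeR 0, DESeq2 0), against 0.0679% of all tested genes by edgeR (0.0145% higher and 0.0533% lower) and 1.81% by DESeq2, and 3 had an unadjusted p under 0.05, which is 8.82% of them against 10.5% of all genes. The 3 were Slc2a3 (9.37 and 9.72 CPM in Zeb2 mutant cDC1, against 17.3 and 11.8 CPM in WT cDC1, log2 -0.61, SE 0.18, edgeR adjusted p = 0.300), Gapdh and Tpi1. Gapdh, the glyceraldehyde-3-phosphate dehydrogenase often used as a loading control, had 359 and 386 CPM in Zeb2 mutant cDC1, against 520.5 and 475 CPM in WT cDC1 (log2 -0.42, 95% interval -0.77 to -0.07, edgeR adjusted p = 0.399). Tpi1 had 108 and 115 CPM in Zeb2 mutant cDC1, against 147.5 and 135 CPM in WT cDC1 (log2 -0.34, edgeR adjusted p = 0.467). For these 3 genes both Zeb2 mutant libraries lay below both WT libraries. Slc2a3 was called when replicate 3 of WT cDC1 was left out (log2 -0.86, edgeR adjusted p = 9.17e-03), against the 17.3 CPM of replicate 2 alone, and with no filter on low counts (adjusted p = 0.0232). For 7 of the 34 genes both lay above and for 8 both lay below (19.2% and 19.8% of all tested genes).

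Over the 34 genes, 20 log2 fold changes were below 0 in Zeb2 mutant cDC1, with a median of -0.03, the same to 2 decimals as over all genes, of which 52.8% were below 0. By role, 13 of the 15 glycolytic enzymes were below 0 (median -0.13), while the 3 flux regulators and the 3 genes of HIF and its hydroxylases were above 0. In Irf8 mutant cDC2, 12 of the 15 enzymes were below 0 (median -0.07), against 48.7% of all genes. In the Zeb2 comparison, the enzymes' summed level was 2825 and 2961 CPM in Zeb2 mutant cDC1, against 3162 and 3147 CPM in WT cDC1. In this comparison the log2 fold change followed exon length, with Spearman's rho of 0.48 across 8399 genes at 10 CPM or more, which are not independent replicates. This rho was -0.27 for WT cDC1 over WT cDC2, -0.14 between the mutants and 0.06 for Irf8 mutant cDC2 over WT cDC2. The WT cDC1 pair itself differed along length (rho -0.39 for replicate 2 minus replicate 3). With the length trend removed, the log2 fold change in the Zeb2 mutant was -0.41 for Gapdh, -0.24 for Tpi1 and -0.75 for Slc2a3, still not called. Neutrophil markers summed to 82.5 and 117 CPM in Zeb2 mutant cDC1, against 14.6 and 1.04 CPM in WT cDC1. Each of the 9 markers had a higher mean in Zeb2 mutant cDC1. Ngp had 25.5 and 36.05 CPM there, against 4.42 and 0 CPM in WT cDC1. Mpo had 16.1 and 25.3 CPM, against 3.39 and 0.205 CPM. Ly6g and Retnlg were under 1 CPM in every library. Immediate-early genes, listed together with the heat shock genes Hspa1a and Hspa1b, summed to 13920 and 12970 CPM in Zeb2 mutant cDC1, against 18660 and 21760 CPM in WT cDC1. Within this sum, Hspa1a had 549 and 252.5 CPM in Zeb2 mutant cDC1, against 461 and 1603 CPM in WT cDC1. Hspa1b had 932 and 437.5 CPM, against 791.5 and 2566 CPM. The part of these in the values above was not tested.

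**Figure D4:**
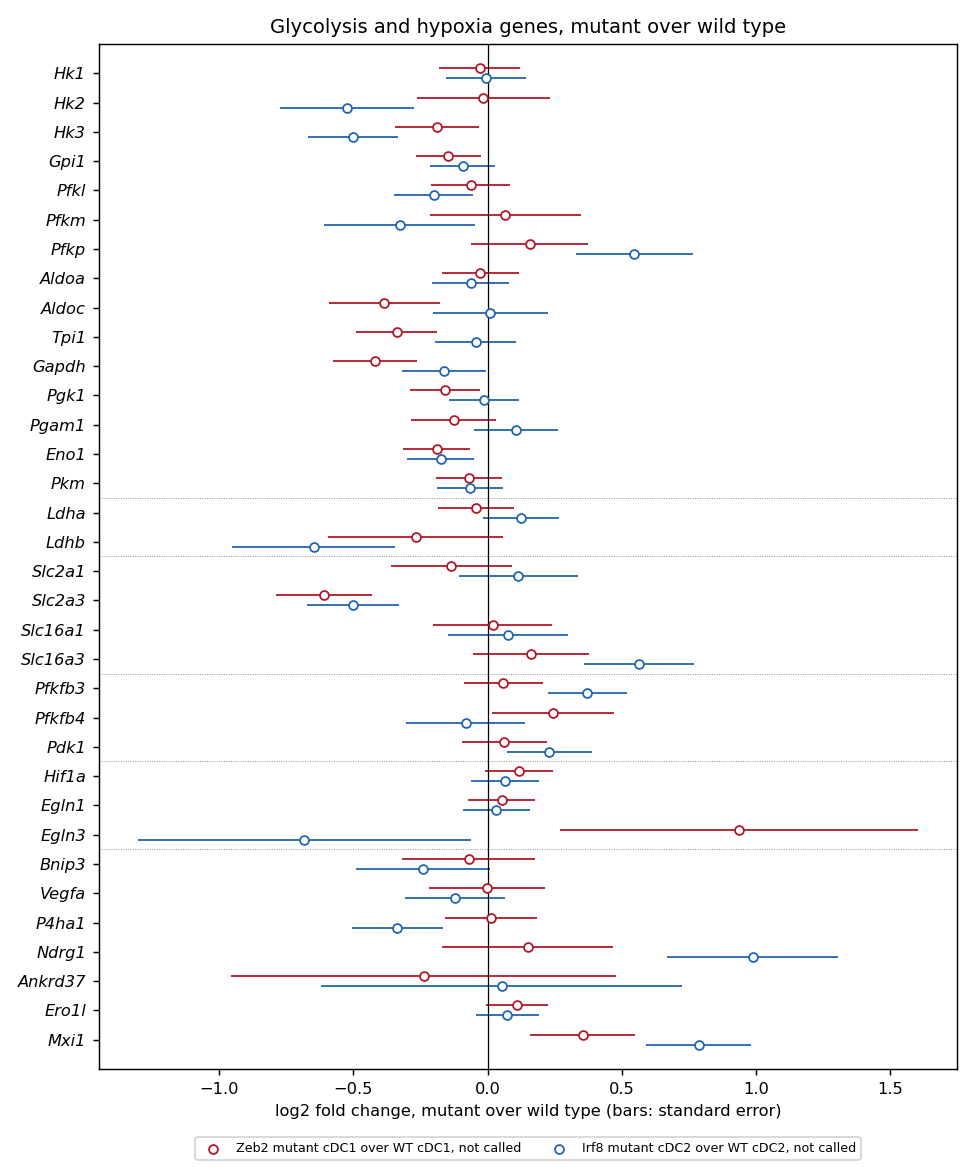
Log2 fold changes of the 34 genes, mutant over WT, with standard errors, for Zeb2 mutant cDC1 and for Irf8 mutant cDC2. Open points were not called, and none was called in either comparison; the values run from -0.68 (Egln3 in Irf8 mutant cDC2) to 0.99 (Ndrg1 in Irf8 mutant cDC2).

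Loss of the Irf8 +32 enhancer was compared with WT in cDC2. None of the 34 genes was called by edgeR (0, against 0% of all tested genes), 1 was called by DESeq2 (Mxi1, against 0.954% of all genes with an adjusted p from DESeq2), and 7 had an unadjusted p under 0.05, or 20.6%, against 6.36% of all genes. Of the 7, Ndrg1, Mxi1, Slc16a3, Pfkp and Pfkfb3 had values above WT and Hk3 and Slc2a3 below. Mxi1 had 85.6 and 56.1 CPM in Irf8 mutant cDC2, against 39.6 and 42.7 CPM in WT cDC2 (log2 0.79, SE 0.20, edgeR adjusted p = 0.452, DESeq2 adjusted p = 0.0378). Ndrg1 had 153.5 and 64.7 CPM in Irf8 mutant cDC2, against 55.2 and 54.9 CPM in WT cDC2 (log2 0.99, SE 0.32, edgeR adjusted p = 0.612). Slc2a3 had 198 and 220.2 CPM in Irf8 mutant cDC2, against 315 and 277 CPM in WT cDC2 (log2 -0.50, SE 0.17, edgeR adjusted p = 0.665). Both mutant libraries lay on one side of both WT libraries for each of the 7, as they did for 15 of the 34 genes, 7 above and 8 below (19.6% and 19.7% of all tested genes).

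The 5 genes with values above WT were all highest in 1 library. Replicate 2 of Irf8 mutant cDC2 was above the other 3 cDC2 libraries in 12 of the 34 genes (28.2% of all tested genes) and more than 1.5 times the highest of them in 4 (6.24% of all tested genes), which were Ndrg1, Pfkp, Slc16a3 and Mxi1. Without it, the log2 fold change in the Irf8 mutant was 0.23 for Ndrg1 (SE 0.19), 0.07 for Pfkp (SE 0.14), 0.22 for Slc16a3 (SE 0.19) and 0.45 for Mxi1 (SE 0.18). The same library had 53.5 CPM of the haemoglobin genes Hba-a1 and Hbb-bs, against 2.77 in replicate 3 of its group and 6.44 and 9.27 in WT cDC2. The whole erythroid and platelet list summed to 60.2 and 5.04 CPM in Irf8 mutant cDC2, against 9.44 and 12.3 CPM in WT cDC2. The platelet gene Itga2b had 1.81 and 1.31 CPM in Irf8 mutant cDC2, against 2.07 and 2.13 CPM in WT cDC2. Neutrophil markers other than Csf3r, which all cDC2 libraries held at 21.7 CPM or more, summed to 92.7 and 46.5 CPM in Irf8 mutant cDC2, against 1.24 and 21.6 CPM in WT cDC2. Monocyte and macrophage markers summed to 1689 and 1305 CPM in Irf8 mutant cDC2, against 1807 and 1760 CPM in WT cDC2. All markers of this list except Lyz2, Csf1r and Fcgr1 were highest in replicate 2 of Irf8 mutant cDC2 among the cDC2 libraries. Cd14 had 215 and 105 CPM in Irf8 mutant cDC2, against 140 and 123 CPM in WT cDC2. Immediate-early genes, again with Hspa1a and Hspa1b, summed to 18170 and 21680 CPM in Irf8 mutant cDC2, against 32810 and 28520 CPM in WT cDC2. Within this sum, Hspa1a had 67.6 and 74.7 CPM in Irf8 mutant cDC2, against 1428 and 516 CPM in WT cDC2. Hspa1b had 120 and 148 CPM, against 2674 and 973.5 CPM. The part of these in the values above was not tested. These genes were singled out after their values were seen.

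**Figure D5:**
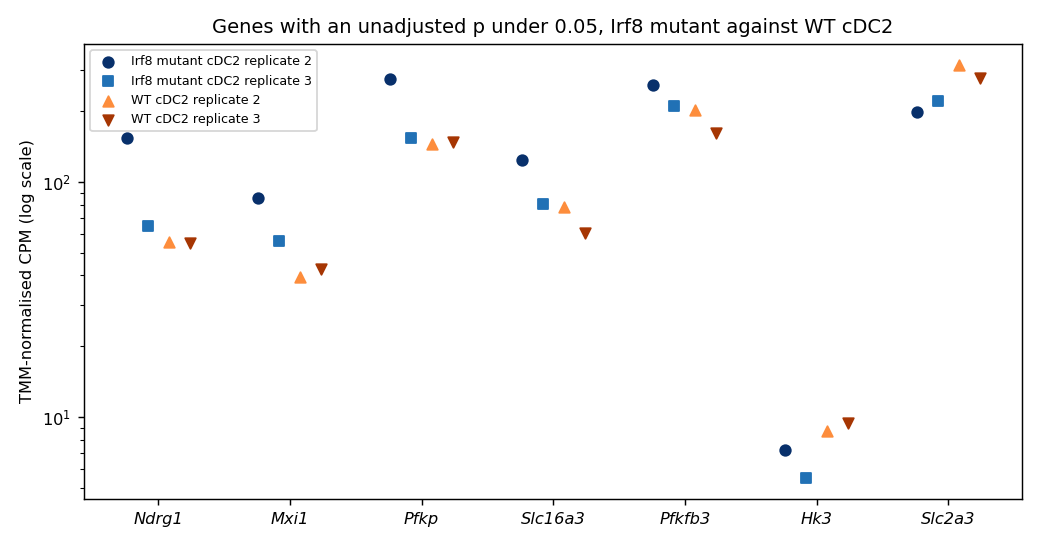
CPM (log scale) of the 7 genes with an unadjusted p under 0.05, in replicates 2 and 3 of Irf8 mutant cDC2 and of WT cDC2, with 1 point per library. In replicate 2, Ndrg1 (153.5 CPM), Pfkp (274), Slc16a3 (124) and Mxi1 (85.6) stand more than 1.5 times above the highest other cDC2 library.

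The effects of the 2 mutants were compared with each other through their interaction, the effect in Zeb2 mutant cDC1 minus the effect in Irf8 mutant cDC2. None of the 34 genes was called (edgeR 0, DESeq2 0, against 1.15% of all genes by DESeq2), none had an unadjusted p under 0.05, while 0.0194% of all tested genes were called, all of them lower, and 7.62% had such a p. The median difference was -0.04 on the log2 scale, against -0.05 over all genes. The 95% interval was -1.84 to 0.17 for Ndrg1, -0.27 to 1.29 for Hk2 and -0.66 to 0.44 for Slc2a3. Without replicate 3 of WT cDC1, Hk2 was called (log2 1.07, edgeR adjusted p = 0.0201), with the remaining WT cDC1 library at 30.0 CPM.

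Around these genes, 66 others of glycolysis, pyruvate use, the pentose phosphate pathway, HIF and its targets were listed, of which 61 were tested. In WT cDC1, 9 were higher and 20 were lower than in WT cDC2 (47.5% called, against 30.1% of all tested genes). In Zeb2 mutant cDC1, 8 were higher and 18 were lower than in Irf8 mutant cDC2 (42.6% called, against 27.9% of all tested genes). The genes of pyruvate import into mitochondria and of pyruvate dehydrogenase held Mpc2, a subunit of the mitochondrial pyruvate carrier, at 85.8 and 89.0 CPM in Zeb2 mutant cDC1, 101 and 73.6 in WT cDC1, 30.3 and 37.4 in Irf8 mutant cDC2, and 33.3 and 36.6 in WT cDC2 (WT log2 1.32, SE 0.18, edgeR adjusted p = 2.53e-04). Also higher in WT cDC1 were Bpgm, which makes 2,3-bisphosphoglycerate (log2 1.04), Pfkfb1 (log2 0.95) and Vhl, the ubiquitin ligase subunit that destroys HIF-1 alpha (log2 0.90). Of the 12 genes of pyruvate import and of pyruvate dehydrogenase with its regulators, 2 were higher and 3 were lower. That is 41.7% called, against 30.1% of all tested genes and 49.4% of genes at a mean of 10 CPM or more.

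Of 15 other HIF targets tested, 2 were higher and 7 were lower in WT cDC1 (60% called, against 30.1% of all tested genes), with a median log2 fold change of -0.49, against 0.03 over all genes. The higher ones were Higd1a (log2 0.59) and P4ha2 (log2 2.54, at 0.483 CPM in WT cDC1 and 0.0810 CPM in WT cDC2). Bhlhe40, a transcriptional repressor, had 92.0 and 95.6 CPM in Zeb2 mutant cDC1, 175 and 110.0 in WT cDC1, 1308 and 1483 in Irf8 mutant cDC2, and 1580 and 1531 in WT cDC2 (WT log2 -3.45, SE 0.21, edgeR adjusted p = 9.77e-07). Ddit4, an inhibitor of mTORC1, averaged 1.14 CPM in WT cDC1 and 22.1 CPM in WT cDC2 (log2 -4.27, SE 0.51), and Hilpda, a lipid droplet protein, averaged 3.49 and 33.0 CPM (log2 -3.24, SE 0.25). The other isoforms of glycolysis added Slc16a7, a further lactate and pyruvate transporter, at 1.04 and 1.20 CPM in WT cDC1, against 12.3 and 12.0 CPM in WT cDC2 (log2 -3.44, SE 0.40). Between the mutants, the largest differences among pathway genes with a group mean of at least 5 CPM were in Bhlhe40 (log2 -3.90), Ddit4 (log2 -3.75) and Hilpda (log2 -3.49), with Slc2a6, a lysosomal hexose transporter, next (log2 -3.11), and on the higher side Pgam2, the muscle phosphoglycerate mutase, at 7.49 CPM in Zeb2 mutant cDC1 and 2.45 CPM in Irf8 mutant cDC2 (log2 1.61). Many of these targets answer to signals other than oxygen, Bhlhe40 and Ddit4 among them. None of the 61 genes was called by edgeR in either mutant against WT or in the interaction (0 each), with an unadjusted p under 0.05 for 11 in the Zeb2 mutant (18%, against 10.5% of all genes), 4 in the Irf8 mutant (6.56%, against 6.36%) and 9 in the interaction (14.8%, against 7.62%). DESeq2 called 4 in the Zeb2 mutant (Eno3, Slc2a6, Myc and Mlxip), 0 in the Irf8 mutant and 1 in the interaction (Slc2a6), where it called 1.81%, 0.954% and 1.15% of all genes that it gave an adjusted p.

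The HIF core letters ACGTG or GCGTG, on either strand, were sought in the 250 bases upstream of every RefSeq start. Of the 34 genes, 32 had at least 1 window, with 48 windows in all. The core stood in 39 of the 48, or 81.2%, against 38.6% of the 32851 windows of all genes. CACGTG, which contains ACGTG, stood in 12.5% of the windows of the listed genes and in 6.02% of all windows. By call in WT cells, the core stood upstream of 9 of 10 genes higher in cDC1, of 10 of 10 lower genes and of 11 of 12 genes not called. Base composition was not matched between these windows and the others. The list was chosen to hold HIF targets, so the share of the core cannot be read apart from that choice. Some genes gave several windows, which are not independent.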

How the data were processed

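RNA from sorted spleen cDC was prepared with a low-input kit (10 ng, RIN above 8.0), taken here not to mark strand. Per the labels' protocols, it was sequenced in read pairs of 150 bases each. The submitters' processing notes name bcl2fastq, STAR, Subread, featureCounts, Salmon, GRCm38 and mm10, with no role given, and state neither the strand setting nor how reads with several matches were handled. The authors deposited whole-number counts per gene for 8 libraries beside columns of CPM, FPKM and TPM, per the file headers. The deposited counts were used for tests and the deposited FPKM for levels per length, while deposited TPM values were not used. CPM in the text are counts scaled again here with TMM factors. Of 55487 identifiers, 55141 have a symbol in the separate reference of gene names used here. A second row named Aldoa, with 2 to 17 counts, was left out.

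Genes were filtered with filterByExpr and fitted over all 4 groups with edgeR 4.0.16 (robust quasi-likelihood, 4 residual degrees of freedom, common coefficient of variation 28.557%) in R 4.3.3 with limma 3.58.1, and p-values were adjusted by Benjamini-Hochberg over 20631 genes. Standard errors were derived from the F statistic, as the size of the log2 fold change divided by its square root. DESeq2 1.42.0 was an alternative. The fit was tested on simulated data. Total counts of 49380686 to 58611821 make counting error small against the spread between libraries, except for genes of low count such as Egln3 and Ankrd37, with 6 to 127 counts per library, and Ldhb in cDC1, with 34 to 60. Values in every library are given for up to 16 called genes by size of fold change and for the most abundant gene of each role, and other genes were named after their values were seen. Around them, up to 4 pathway genes per direction with a group mean of at least 5 CPM were named. The genes and lists were chosen with earlier results of these data known. Promoter windows come from RefSeq on GRCm38.p6; those of Slc2a3 and Ndrg1 were not analysed here.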

Additional observations from a re-analysis of the deposited data

How the results depend on the processing

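Of the calls between WT cDC1 and WT cDC2, 16 of 22 held under all 15 alternatives, as did 14 of 20 between the mutants, and 31 of 34 genes kept the sign of their fold change in each. Between WT cells, the higher and lower calls numbered 10 and 12, against 10 and 12 by DESeq2, 9 and 12 with DESeq2 size factors, 12 and 11 with the length trend removed, 10 and 13 with no filter and 9 and 12 with only the groups compared. Leaving out 1 library gave 8 to 10 higher and 8 to 13 lower calls between WT cells, and 6 to 10 higher and 9 to 12 lower calls between the mutants. With 0 calls lower in the Zeb2 mutant, 1 was made with no filter and 1 without replicate 3 of WT cDC1 (Slc2a3), so leaving out a library gave 0 to 1. With 0 calls higher in the Irf8 mutant, 1 was made by DESeq2 (Mxi1) and 2 with no filter (Ndrg1 and Mxi1). In the interaction 1 higher call, Hk2, was made without replicate 3 of WT cDC1. Without that library, 666 genes were called higher and 369 lower in Zeb2 mutant cDC1 over all genes, against 3 and 11 with it. The cause of these changes was not tested. No called value changed sign. Removing the length trend moved the median log2 fold change of all genes between the mutants to -0.12, against -0.02.

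Correlations of same-numbered deviations were -0.22 to 0.12 across 8399 genes, with the highest between Irf8 mutant cDC2 and WT cDC2. With 2 libraries per group, they cannot tell whether the replicate numbers pair the libraries. With the replicate block, 10 and 12 genes were called between WT cells, 10 and 10 between the mutants, and 0 in each mutant against WT. With the numbers of WT cDC1 crossed, a pairing chosen after seeing the data, these were 10 and 12, and 10 and 11.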
